A study of Homo sapiens with 12 samples.

Results

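The spindle assembly checkpoint and its target, the anaphase-promoting complex or cyclosome (APC/C), were followed through 10 genes in OVCAR-3 cells after 3 siRNA knockdowns. The genes were BUB1B, BUB3, MAD2L1 and TTK for the checkpoint, CDC20 and UBE2C for APC/C activation, PTTG1 and ESPL1 for sister chromatid separation, and ANAPC1 and ANAPC13 for the core of the complex. They were taken as every probe whose only platform gene symbol was one of these 10, which gave 17 probes out of 30102 probes with a single gene, and 10 genes out of 20039 with a probe. OVCAR-3 is an established line from a human high-grade serous ovarian carcinoma. The siRNAs were directed at Oct4, the product of POU5F1 (siOct4), at Ccnf and Nipp1 at once, from CCNF and PPP1R8 (siCcnf+siNipp1), or at Rb1, from RB1 (siRb1), and the fourth group received a control siRNA. All 4 groups were transfected with Lipofectamine RNAiMAX and harvested 72 hours later, with 3 Illumina HT-12 arrays each. The labels call the arrays biological replicates without naming separate cultures, so the p-values measure a spread that may be partly technical.

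In a dividing cell, kinetochores that are not yet attached to spindle fibres produce an inhibitor made of MAD2L1, BUB1B, BUB3 and CDC20. It keeps the APC/C from working until all chromosomes are attached. The released APC/C, with CDC20 as activator and UBE2C as the enzyme that hands over ubiquitin, marks securin and cyclin B for destruction. Separase, once free of securin, then cuts the cohesin rings that hold sister chromatids together. Transcripts of the checkpoint and activator genes rise in G2 and mitosis of cycling cells, whereas many core APC/C subunits are produced through the whole cycle.

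The targeted transcripts were measured first. The POU5F1 probe was undetected on all 3 siOct4 arrays and was at least 15.9-fold lower there than in control (limma, adjusted p = 1.33e-07). The CCNF signal averaged 10.36 ± 0.54 in siCcnf+siNipp1 cells and 11.91 ± 0.18 in control cells on the log2 scale (SD, n = 3 each; limma, adjusted p = 0.000694). The RB1 probe was detected on 0 of 3 siRb1 arrays, with a signal at least 2.22-fold under control (limma, adjusted p = 0.000772). No probe was paired with PPP1R8, so the Nipp1 knockdown was not measured. CCNF was also lower in siOct4 cells (log2 fold change -0.96, limma, adjusted p = 0.0124), as was RB1 (-0.61, limma, adjusted p = 0.0405, with overlapping groups), and POU5F1 was higher in siCcnf+siNipp1 cells (1.03, limma, adjusted p = 0.00267). In siRb1 cells POU5F1 was 0.80 above control without passing (limma, adjusted p = 0.0524). Detected probes numbered 16186 to 17351 per array, and 7 of 8 epithelial and ovarian markers of the line were kept, WT1 being the exception. Of these 7, KRT8, a keratin, was undetected on all arrays of the 3 knockdown groups and lower than control in each (limma, adjusted p = 0.000134 in siOct4, 0.00058 in siCcnf+siNipp1 and 0.00532 in siRb1 cells), by at least 2.09-fold in siOct4 and 2.06-fold in siRb1 cells. EPCAM was also lower and KRT7 and PAX8 higher in siOct4 cells (log2 fold changes -0.78, 1.53 and 0.58), KRT18 was lower in siRb1 cells (-0.59), and MSLN was undetected in siCcnf+siNipp1 cells, at least 3.02-fold lower (limma, adjusted p = 1.73e-06). The EPCAM change in siRb1 cells was -0.88 and just missed the threshold (limma, adjusted p = 0.0503). No leukocyte marker was kept of 3 with a probe, and 1 fibroblast marker (COL1A1) of 4 was, which was higher in siCcnf+siNipp1 cells (0.77, limma, adjusted p = 0.0258) and detected there on 3 arrays, against 1 of 3 control arrays. Of 3 endothelial markers VWF and CDH5 were kept, and VWF was lower in siOct4 and siCcnf+siNipp1 cells (log2 fold changes -1.01 and -1.31). CDH5 differed by 0.01 with siOct4 (limma, adjusted p = 0.976) and was lower with siCcnf+siNipp1 (-0.63, limma, adjusted p = 0.0206). The part of these line and other-cell markers in the results was not tested.

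All 10 genes had at least 1 detected probe. Each gene was read by its brightest kept probe, and 16 of the 17 probes were kept. The probe that was left out, for BUB3, was undetected on all 12 arrays. Values below are normalized signals on the log2 scale, where a difference of 1 is a 2-fold difference. A change was called where the adjusted p lay under 0.05 in a limma model of all 12 arrays, adjusted by the Benjamini-Hochberg method over 10873 genes. In the F test among the 4 groups 10 of 10 genes were called, against 58.2% of all genes. The 10 genes were chosen with earlier results of these data known. Their counts of calls, here and below, are therefore not a test of the set against all genes. An exact permutation test of 3 arrays against 3 cannot go below p = 0.1. That was the value for every gene and comparison below in which the groups did not overlap. In bulk RNA, a smaller share of cells in mitosis and less RNA per cell cannot be told apart.

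In siOct4 and siCcnf+siNipp1 cells most checkpoint and activator transcripts fell. The core subunit ANAPC1, read by its brightest probe, was called higher in both, and the siCcnf+siNipp1 call was lost in 8 of 15 alternatives. In siRb1 cells ANAPC1 was 0.51 above control on the log2 scale, beside 0.50 in siCcnf+siNipp1 cells, and was not called. In siOct4 cells 7 of the 10 genes were lower than in control, 1 was higher and 2 were not called, against 34.2% of all genes called (16.6% lower, 17.6% higher). The siOct4 and control arrays did not overlap for 9 of the 10, against 46.1% of all genes. In siCcnf+siNipp1 cells 7 were lower, 2 higher and 1 not called, against 38.3% of all genes (19.3% lower, 19% higher). With median scaling of the arrays 7 were lower and 0 higher. Over all genes that scaling gave 3704 calls, 42.1% of them higher, beside 4168 calls and 49.6% otherwise. The siCcnf+siNipp1 and control arrays were apart, with no overlap, for 10 of the 10 genes, against 51.1% of all genes. In siRb1 cells 0 of 10 were called, against 4.7% of all genes (1.74% lower, 2.96% higher), and 2 (ANAPC1 and ANAPC13) had an unadjusted p under 0.05. With a replicate block these 2 were called, as were 1162 of all 10873 genes. The siRb1 and control arrays did not overlap for 4 of the 10 genes, against 27.3% of all genes. Of all siRb1 calls 63.0% were higher, and 39.8% with median scaling. The knockdown groups share their control arrays, so their changes against control are not independent of each other.

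**Figure D1:**
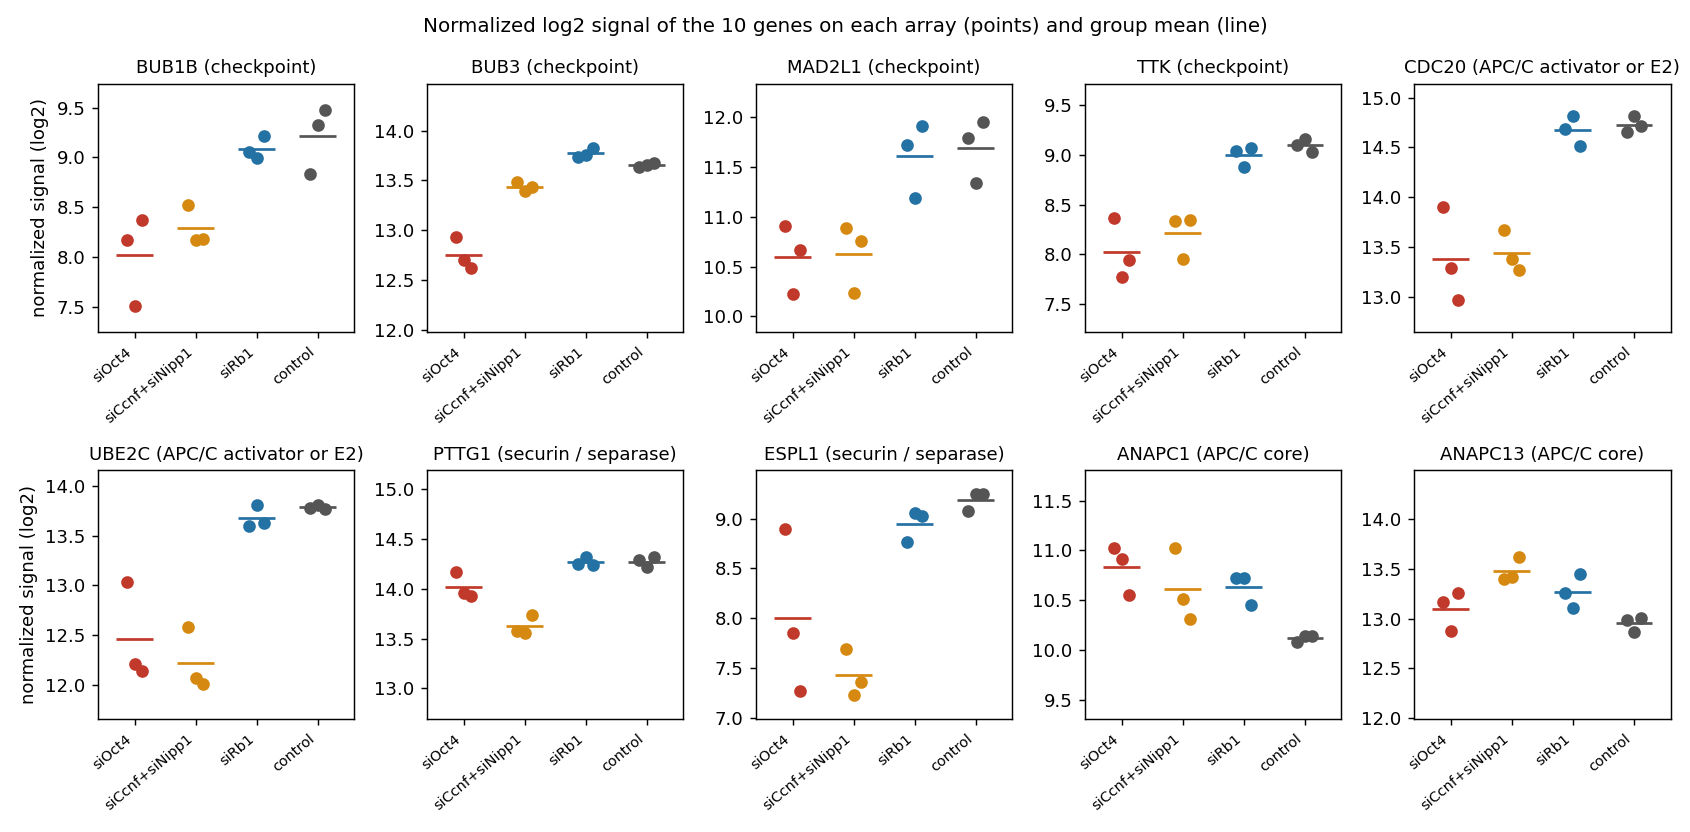
Normalized log2 signal (vertical axes, each spanning 2.5 units) of the 10 genes on each of the 12 arrays. Points are single arrays and lines are means of 3 arrays, in the order siOct4, siCcnf+siNipp1, siRb1 and control. For CDC20 the siOct4 and siCcnf+siNipp1 arrays lie between 12.97 and 13.90 and the siRb1 and control arrays between 14.51 and 14.82, while for ANAPC1 the 3 control arrays, at 10.08 to 10.14, are the lowest of the 12.

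CDC20 binds the APC/C and selects its mitotic substrates, and it is the protein that the checkpoint inhibitor captures. Its promoter region is shown because CDC20 is the brightest of the genes that fell in both knockdowns and holds both of the promoter elements searched for here. The 250 bases before the annotated start (RefSeq, GRCh38.p14, chr1:43358731-43358980, plus strand) are printed 5′ to 3′, with the letters TTTGAA or TTCAAA and CCAAT or ATTGG in capitals.
CDC20: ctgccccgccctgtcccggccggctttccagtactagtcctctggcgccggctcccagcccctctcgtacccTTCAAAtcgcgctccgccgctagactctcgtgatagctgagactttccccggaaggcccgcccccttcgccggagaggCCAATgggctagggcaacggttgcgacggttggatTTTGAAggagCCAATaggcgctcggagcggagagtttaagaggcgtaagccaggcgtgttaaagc
CDC20 had values of 13.90, 13.29 and 12.97 in siOct4 cells, 13.67, 13.38 and 13.27 in siCcnf+siNipp1 cells, 14.68, 14.82 and 14.51 in siRb1 cells, and 14.66, 14.81 and 14.71 in control cells. All 6 siOct4 and siCcnf+siNipp1 arrays lay below all 6 siRb1 and control arrays. The log2 fold change against control was -1.34 ± 0.20 (for fold changes here and below SE, n = 3 arrays per group, limma, adjusted p = 0.000474) with siOct4, a signal 2.54-fold lower. With siCcnf+siNipp1 it was -1.29 ± 0.20 (limma, adjusted p = 0.000539), and with siRb1 -0.06 (95% interval -0.50 to 0.39, limma, adjusted p = 0.923).

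UBE2C is the ubiquitin-conjugating enzyme that starts ubiquitin chains on APC/C substrates. Its signal was 13.03, 12.21 and 12.14 in siOct4 cells, 12.58, 12.06 and 12.01 in siCcnf+siNipp1 cells, 13.60, 13.80 and 13.62 in siRb1 cells, and 13.78, 13.80 and 13.77 in control cells. The siOct4 array of replicate 1 stood apart above the other two of its group, yet below every siRb1 and control array. UBE2C fell with siOct4 (log2 fold change -1.32 ± 0.22, limma, adjusted p = 0.000838) and with siCcnf+siNipp1 (-1.56 ± 0.22, limma, adjusted p = 0.000276), where the signal was 2.96-fold lower. With siRb1 it differed from control by -0.11 (95% interval -0.59 to 0.37).

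Of the checkpoint proteins, TTK is the kinase, also called MPS1, that starts checkpoint signalling at unattached kinetochores. Its values were 8.37, 7.78 and 7.94 in siOct4 cells, 8.34, 7.95 and 8.34 in siCcnf+siNipp1 cells, 9.04, 8.88 and 9.07 in siRb1 cells, and 9.10, 9.16 and 9.03 in control cells. Neither the siOct4 nor the siCcnf+siNipp1 arrays overlapped with control. The log2 fold change was -1.07 ± 0.16 with siOct4 (limma, adjusted p = 0.000447), -0.89 ± 0.16 with siCcnf+siNipp1 (limma, adjusted p = 0.00123) and -0.10 with siRb1 (95% interval -0.45 to 0.25).

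BUB1B encodes BUBR1, the subunit of the inhibitor that blocks the APC/C's substrate sites. It is shown with its promoter because it holds a TTTGAA element close to the start and no CCAAT (RefSeq, GRCh38.p14, chr15:40160819-40161068, plus strand, capitals as for CDC20).
BUB1B: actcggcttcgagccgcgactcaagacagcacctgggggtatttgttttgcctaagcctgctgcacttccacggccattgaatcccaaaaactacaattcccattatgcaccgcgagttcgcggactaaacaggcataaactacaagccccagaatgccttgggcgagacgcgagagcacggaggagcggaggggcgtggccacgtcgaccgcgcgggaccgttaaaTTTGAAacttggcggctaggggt
BUB1B measured 8.17, 7.50 and 8.37 in siOct4 cells, 8.52, 8.17 and 8.18 in siCcnf+siNipp1 cells, 9.05, 9.00 and 9.22 in siRb1 cells, and 8.83, 9.33 and 9.48 in control cells. Every siOct4 and siCcnf+siNipp1 array stood below the lowest control array. Its log2 fold change was -1.20 ± 0.22 with siOct4 (limma, adjusted p = 0.00173), -0.93 ± 0.22 with siCcnf+siNipp1 (limma, adjusted p = 0.0067) and -0.12 with siRb1 (95% interval -0.61 to 0.36).

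MAD2L1 encodes MAD2, which changes shape at kinetochores and then clamps CDC20. MAD2L1 had values of 10.90, 10.23 and 10.67 in siOct4 cells, 10.89, 10.24 and 10.75 in siCcnf+siNipp1 cells, 11.73, 11.19 and 11.91 in siRb1 cells, and 11.80, 11.34 and 11.95 in control cells. Replicate 2 was the lowest array in every one of the 4 groups, and the siOct4 and siCcnf+siNipp1 arrays still lay below all control arrays. The log2 fold changes were -1.09 ± 0.25 with siOct4 (limma, adjusted p = 0.00529), -1.07 ± 0.25 with siCcnf+siNipp1 (limma, adjusted p = 0.00546) and -0.09 with siRb1 (95% interval -0.63 to 0.45).

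BUB3, which carries BUB1 and BUBR1 to kinetochores, parted the 2 knockdowns. Its signal was 12.93, 12.70 and 12.62 in siOct4 cells, 13.49, 13.40 and 13.43 in siCcnf+siNipp1 cells, 13.74, 13.75 and 13.83 in siRb1 cells, and 13.64, 13.65 and 13.68 in control cells. The siOct4 arrays lay below all others, and the siCcnf+siNipp1 arrays sat between them and control. BUB3 fell with siOct4 (log2 fold change -0.91 ± 0.10, limma, adjusted p = 9.65e-05). The change with siCcnf+siNipp1, -0.22 (95% interval -0.45 to 0.01), was not called (limma, adjusted p = 0.122). The direct comparison of siOct4 with siCcnf+siNipp1 gave -0.69 ± 0.10 (limma, adjusted p = 0.000422).

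PTTG1 encodes securin, the inhibitor of separase and itself an APC/C substrate. Its promoter is shown because it holds 3 matches to CCAAT or ATTGG and no TTTGAA (RefSeq, GRCh38.p14, chr5:160421605-160421854, plus strand, the first of 2 annotated starts, capitals as above).
PTTG1: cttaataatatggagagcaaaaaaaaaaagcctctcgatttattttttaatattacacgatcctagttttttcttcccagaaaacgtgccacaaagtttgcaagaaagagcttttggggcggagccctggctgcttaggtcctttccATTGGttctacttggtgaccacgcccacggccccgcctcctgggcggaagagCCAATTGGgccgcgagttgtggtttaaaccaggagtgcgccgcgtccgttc
The PTTG1 signal was 14.17, 13.96 and 13.93 in siOct4 cells, 13.58, 13.56 and 13.74 in siCcnf+siNipp1 cells, 14.25, 14.32 and 14.24 in siRb1 cells, and 14.29, 14.22 and 14.32 in control cells. Here the siCcnf+siNipp1 arrays were the lowest of the 4 groups, the reverse of BUB3. PTTG1 fell with siCcnf+siNipp1 (log2 fold change -0.65 ± 0.11, limma, adjusted p = 0.000648). The change with siOct4, -0.26 ± 0.11, was not called (limma, adjusted p = 0.0811), although it was without siOct4 replicate 1 (-0.33, limma, adjusted p = 0.0365, range over 15 alternatives 0.0365 to 0.479). Between siOct4 and siCcnf+siNipp1 cells the difference was 0.40 ± 0.11 (limma, adjusted p = 0.0123). With siRb1 it was 0.00 (95% interval -0.23 to 0.23). PTTG1 has near-identical copies elsewhere in the genome, so its reading is uncertain to that extent. Among these, PTTG3P had 1 probe on the arrays, which was kept, and PTTG2 had 1, which was not.

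ESPL1 encodes separase. Its promoter is shown because TTTGAA and ATTGG lie close together near the start (RefSeq, GRCh38.p14, chr12:53268049-53268298, plus strand, capitals as above).
ESPL1: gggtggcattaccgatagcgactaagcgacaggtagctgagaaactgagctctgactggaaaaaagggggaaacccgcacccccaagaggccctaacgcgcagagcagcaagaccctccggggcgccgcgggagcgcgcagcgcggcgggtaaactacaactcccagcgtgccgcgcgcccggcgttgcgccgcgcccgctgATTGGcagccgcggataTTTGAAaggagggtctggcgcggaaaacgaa
ESPL1 had values of 8.90, 7.85 and 7.26 in siOct4 cells, 7.69, 7.22 and 7.36 in siCcnf+siNipp1 cells, 8.76, 9.06 and 9.03 in siRb1 cells, and 9.08, 9.25 and 9.25 in control cells. The siOct4 arrays were widely spread, with replicate 1 within the siRb1 range, and all lay below control. The fall with siCcnf+siNipp1 was -1.77 ± 0.31 on the log2 scale or 3.40-fold (limma, adjusted p = 0.00104). It was -1.18 with quantile normalization without background correction and -1.19 with the authors' deposited normalized values, where UBE2C had -1.53 and -1.52. With siOct4 the log2 fold change was -1.19 ± 0.31 (limma, adjusted p = 0.0113), and with siRb1 -0.24 (95% interval -0.91 to 0.43, limma, adjusted p = 0.747).

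ANAPC1 is the largest scaffold subunit of the APC/C core. It had values of 11.02, 10.91 and 10.55 in siOct4 cells, 11.03, 10.51 and 10.31 in siCcnf+siNipp1 cells, 10.72, 10.72 and 10.46 in siRb1 cells, and 10.08, 10.14 and 10.14 in control cells. Every array of the 3 knockdown groups lay above every control array. ANAPC1 rose with siOct4 (log2 fold change 0.71 ± 0.18, 1.63-fold, limma, adjusted p = 0.00987). With siCcnf+siNipp1 the change was 0.50 ± 0.18 (limma, adjusted p = 0.0464). That call was lost in 8 of 15 alternatives, including the fits without control replicates 1 (limma, adjusted p = 0.105), 2 (0.0922) or 3 (0.0902) and without siCcnf+siNipp1 replicates 1 (0.168) or 2 (0.069). Over all 15 the adjusted p ranged from 0.016 to 0.168, and without siCcnf+siNipp1 replicate 1 the change itself was 0.29. With siRb1 the change was 0.51 ± 0.18 and not called (limma, adjusted p = 0.137), but it was with a replicate block (adjusted p = 0.0467) and with only the siRb1 and control arrays in the fit (0.0483, range over 15 alternatives 0.0467 to 0.551). Near-copies of ANAPC1 in the genome, for which the arrays have no probe, leave its reading uncertain to that extent.

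ANAPC13 is a small subunit that helps hold the core together. Its promoter is shown as the counterpart without either element (RefSeq, GRCh38.p14, chr3:134486024-134486273, minus strand, the first of 3 annotated starts).
ANAPC13: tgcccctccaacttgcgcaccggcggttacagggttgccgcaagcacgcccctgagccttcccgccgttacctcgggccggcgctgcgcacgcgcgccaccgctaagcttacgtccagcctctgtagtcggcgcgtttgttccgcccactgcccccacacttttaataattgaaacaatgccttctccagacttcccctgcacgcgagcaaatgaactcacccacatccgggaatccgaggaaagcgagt
ANAPC13 had values of 13.17, 12.87 and 13.26 in siOct4 cells, 13.40, 13.41 and 13.62 in siCcnf+siNipp1 cells, 13.25, 13.11 and 13.45 in siRb1 cells, and 12.99, 12.86 and 13.01 in control cells. The siCcnf+siNipp1 and siRb1 arrays lay above all control arrays, whereas the siOct4 arrays overlapped with them. ANAPC13 rose with siCcnf+siNipp1 (log2 fold change 0.53 ± 0.13, limma, adjusted p = 0.00884). It was not called there with median scaling of the arrays (0.40, limma, adjusted p = 0.0996, range over 15 alternatives 0.00118 to 0.0996). The changes with siOct4 (0.15 ± 0.13, limma, adjusted p = 0.427) and siRb1 (0.32 ± 0.13, limma, adjusted p = 0.217) were not called. With a replicate block the siRb1 change was called (limma, adjusted p = 0.0488, range over 15 alternatives 0.0488 to 0.635).

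**Figure D2:**
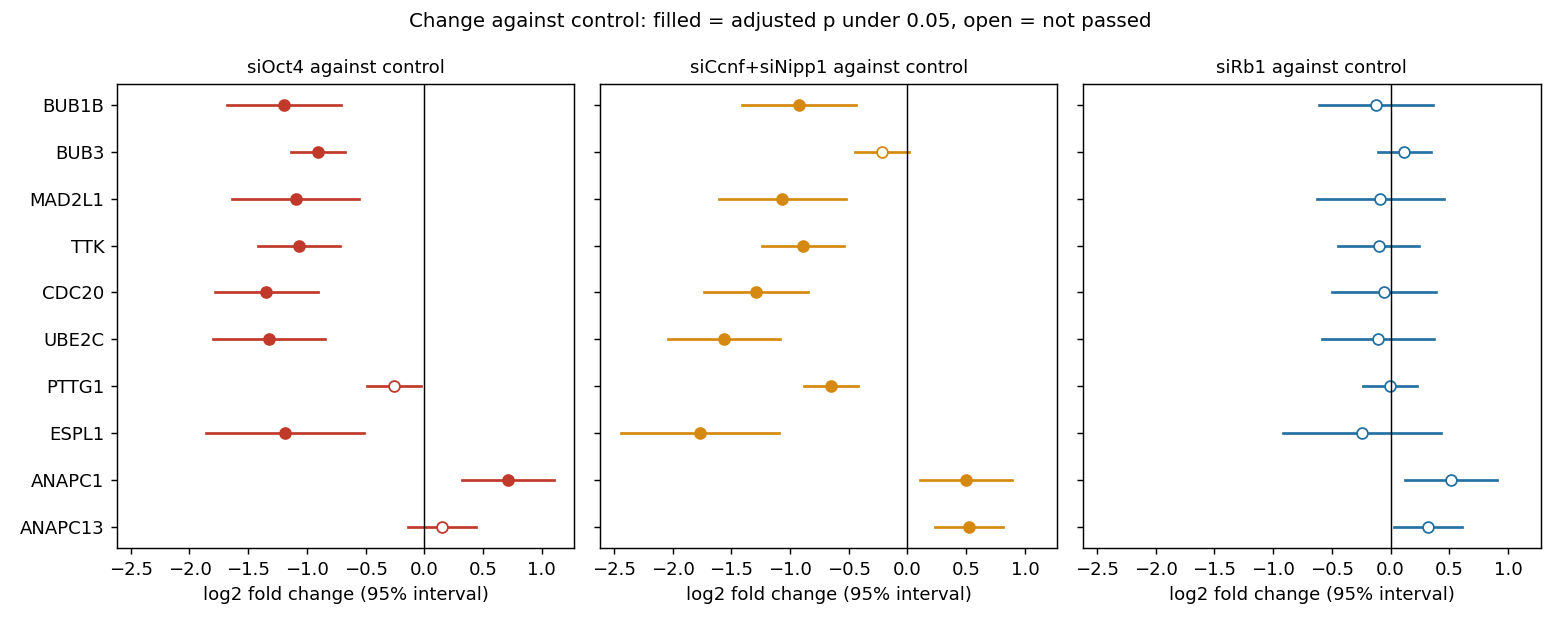
Log2 fold change against control (horizontal axis) of the 10 genes in siOct4, siCcnf+siNipp1 and siRb1 cells (3 panels). Bars are 95% intervals from the limma model, and filled points passed an adjusted p under 0.05. The 8 genes other than ANAPC1 and ANAPC13 lie left of 0 in both of the first panels, and no point is filled for siRb1.

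The contrast of the checkpoint proteins and activators with the core subunits was taken array by array. For each array, the mean difference from the control mean over ANAPC1 and ANAPC13 was subtracted from that over BUB1B, BUB3, MAD2L1, TTK, CDC20 and UBE2C. The result was -1.37, -1.77 and -1.61 in siOct4 cells, -1.46, -1.59 and -1.46 in siCcnf+siNipp1 cells, -0.51, -0.50 and -0.42 in siRb1 cells, and -0.06, 0.03 and 0.03 in control cells on the log2 scale. In siRb1 cells the 6 checkpoint and activator genes averaged -0.06, -0.12 and 0.00, and the core pair, by brightest probes, 0.45, 0.38 and 0.41. Neither core gene was called there, and the second ANAPC1 probe was 0.17 below control (limma over probes, adjusted p = 0.49). The median log2 fold change of the other core subunits was -0.10 in siRb1 cells. The genes of the contrast were chosen with these results known, so it is given without a test.

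None of the other core subunits was called higher in these knockdowns. Of 11 other core genes tested, 0 were higher and 5 lower in siOct4 cells, with a median log2 fold change of -0.18. In siCcnf+siNipp1 cells 0 were higher and 5 lower (median -0.30), and in siRb1 cells 0 were called in either direction (median -0.10). The median over all genes was -0.01, 0.00 and 0.00 in these 3 comparisons. Calls over all genes were 34.2% (16.6% lower, 17.6% higher), 38.3% (19.3% lower, 19% higher) and 4.7% (1.74% lower, 2.96% higher). ANAPC16 lay above control on average in each knockdown without being called. Its means were 8.30 ± 0.35 in siOct4, 8.18 ± 0.14 in siCcnf+siNipp1, 8.19 ± 0.10 in siRb1 and 7.82 ± 0.23 in control cells (SD, n = 3 each). The siRb1 arrays did not overlap with control for it (0.37, limma, adjusted p = 0.284). ANAPC7, a scaffold subunit, averaged 8.90 ± 0.19 in siOct4 cells, 8.91 ± 0.27 in siCcnf+siNipp1 cells and 9.66 ± 0.22 in control cells (SD, n = 3 each). It fell by 0.76 and 0.74 on the log2 scale (limma, adjusted p = 0.006 and 0.00622). ANAPC11, the catalytic RING subunit, fell by 0.46 and 0.49 (limma, adjusted p = 0.0101 and 0.00633), and ANAPC15, which helps the checkpoint inhibitor turn over, fell by 0.84 and 0.55 (limma, adjusted p = 0.00394 and 0.03). CDC26, a small subunit that steadies CDC16, fell in siOct4 cells (-0.60, limma, adjusted p = 0.00169) and was 0.21 above control in siCcnf+siNipp1 cells without passing (limma, adjusted p = 0.165). ANAPC2, the cullin subunit, was detected on 1 of 3 siCcnf+siNipp1 arrays and fell there (fitted log2 fold change -1.12, limma, adjusted p = 0.0132). ANAPC5 fell there as well (-0.42, limma, adjusted p = 0.0274). CDC23 averaged 10.95 ± 0.13 in siOct4 cells, 11.47 ± 0.04 in siCcnf+siNipp1 cells and 11.23 ± 0.06 in control cells (SD, n = 3 each). Its siOct4 arrays lay below all control arrays and its siCcnf+siNipp1 arrays above them, the latter without a call. With ANAPC1 and ANAPC13 included, 13 core genes held 1 higher and 5 lower in siOct4 cells, and 2 higher and 5 lower in siCcnf+siNipp1 cells.

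The other checkpoint genes mostly fell. Of 9 tested, 5 were lower with siOct4 (median log2 fold change -0.68) and 7 with siCcnf+siNipp1 (median -0.80), and none was higher. Over all genes 34.2% and 38.3% were called (16.6% and 19.3% lower). BUB1, a kinetochore kinase that marks centromeric chromatin for shugoshin, averaged 9.13 ± 0.37 in siOct4 cells, 9.66 ± 0.34 in siCcnf+siNipp1 cells and 10.46 ± 0.03 in control cells, a fall of 1.33 and 0.80 (limma, adjusted p = 4e-04 and 0.00705). KNL1, the kinetochore platform for BUB1 and BUB3, was detected on 1 of 3 siOct4 arrays and 2 of 3 siCcnf+siNipp1 arrays, with fitted log2 fold changes of -1.55 (limma, adjusted p = 0.000586) and -1.19 (0.00268). TRIP13, the ATPase that takes MAD2 apart from its partners, fell by 1.18 and 1.03 (limma, adjusted p = 0.00144 and 0.00294). KNTC1, the ROD subunit that brings MAD1 and MAD2 to kinetochores, fell by 0.68 and 0.86 (limma, adjusted p = 0.00808 and 0.00188). SPDL1, an adaptor for dynein at kinetochores, averaged 12.42 ± 0.20 in siOct4 cells, 11.50 ± 0.23 in siCcnf+siNipp1 cells and 13.11 ± 0.07 in control cells. Its fall was larger with siCcnf+siNipp1 (-1.61) than with siOct4 (-0.70), and the difference between them was 0.91 (limma, adjusted p = 0.000386).

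In siRb1 cells 1 of these 9 genes was called, against 4.7% of all genes. MAD2L1BP, also known as p31comet, silences the checkpoint by opening MAD2 together with TRIP13. It averaged 9.16 ± 0.26 in siRb1 cells and 10.41 ± 0.14 in control cells (SD, n = 3 each), a log2 fold change of -1.26 ± 0.15 (limma, adjusted p = 0.000851). It was 10.13 ± 0.17 in siOct4 cells and 10.48 ± 0.09 in siCcnf+siNipp1 cells, and was not called in either against control. Its siRb1 values lay below siOct4 and siCcnf+siNipp1 cells as well (limma, adjusted p = 0.00053 and 8.24e-05).

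Nearly all APC/C substrates fell in the same 2 knockdowns. Of 25 substrates tested, 22 were lower with siOct4 and 24 with siCcnf+siNipp1, none was higher, and the median log2 fold changes were -1.20 (-1.16 with 1 undetected gene at its bound) and -1.23. With siRb1 0 of 25 were called (median 0.00). Over all genes 34.2% were called with siOct4 (16.6% lower), 38.3% with siCcnf+siNipp1 (19.3% lower) and 4.7% with siRb1. AURKB, the chromosomal passenger kinase, fell by 1.34 with siOct4 and by 1.54 with siCcnf+siNipp1 (limma, adjusted p = 0.000394 and 0.000146). SKP2, a subunit of another ubiquitin ligase, fell by 1.53 with siOct4 (limma, adjusted p = 0.000283), and HMMR, a spindle-associated protein, fell by 1.72 with siCcnf+siNipp1 (limma, adjusted p = 0.000156). SGO1, the shugoshin that protects centromeric cohesin, fell by 1.47 with siOct4 and by 1.28 with siCcnf+siNipp1 (limma, adjusted p = 0.000169 and 0.000364). Among APC/C inhibitors, FBXO5, which encodes EMI1, fell by 1.36 and 1.28 (limma, adjusted p = 0.00148 and 0.00195), and MAD2L2 fell with siCcnf+siNipp1 (-0.94, limma, adjusted p = 0.000261). FBXO5 is also counted among the 25 substrates. FZR1, the activator of the complex after mitosis, was undetected on all siOct4 and siCcnf+siNipp1 arrays and detected on 3 of 3 siRb1 arrays and 1 of 3 control arrays. Its values were 6.87, 6.95 and 7.18 in siRb1 cells, from low to high, and 5.97, 6.37 and 6.65 in control cells, a difference that was not called (limma, adjusted p = 0.0935).

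General proliferation genes fell as well. Of 9 tested, 7 were lower with siOct4 (median log2 fold change -1.30, or -1.21 with 3 undetected genes at their bounds) and 8 with siCcnf+siNipp1 (median -1.05), none was higher, and 0 were called with siRb1. Over all genes 34.2%, 38.3% and 4.7% were called in these comparisons (16.6%, 19.3% and 1.74% lower). TOP2A, the topoisomerase of replicating cells, fell by 1.30 and 1.34 (limma, adjusted p = 0.00024 and 0.000179). CDC25C, the phosphatase that activates CDK1, was undetected on all 3 siOct4 arrays and at least 3.09-fold lower there (limma, adjusted p = 1.62e-05). Of 9 cohesin and cohesin-regulator genes, 7 were lower with siOct4 and 4 with siCcnf+siNipp1, and none was higher, beside the same shares of all genes. SGO1 is counted both here and among the substrates. STAG2, a subunit of the ring, fell by 1.55 with siOct4 (limma, adjusted p = 8.32e-05) and differed between the 2 knockdowns by -1.42 (limma, adjusted p = 0.000111). The part that a change in the number of cycling cells had in the falls of the checkpoint genes was not tested.

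**Figure D3:**
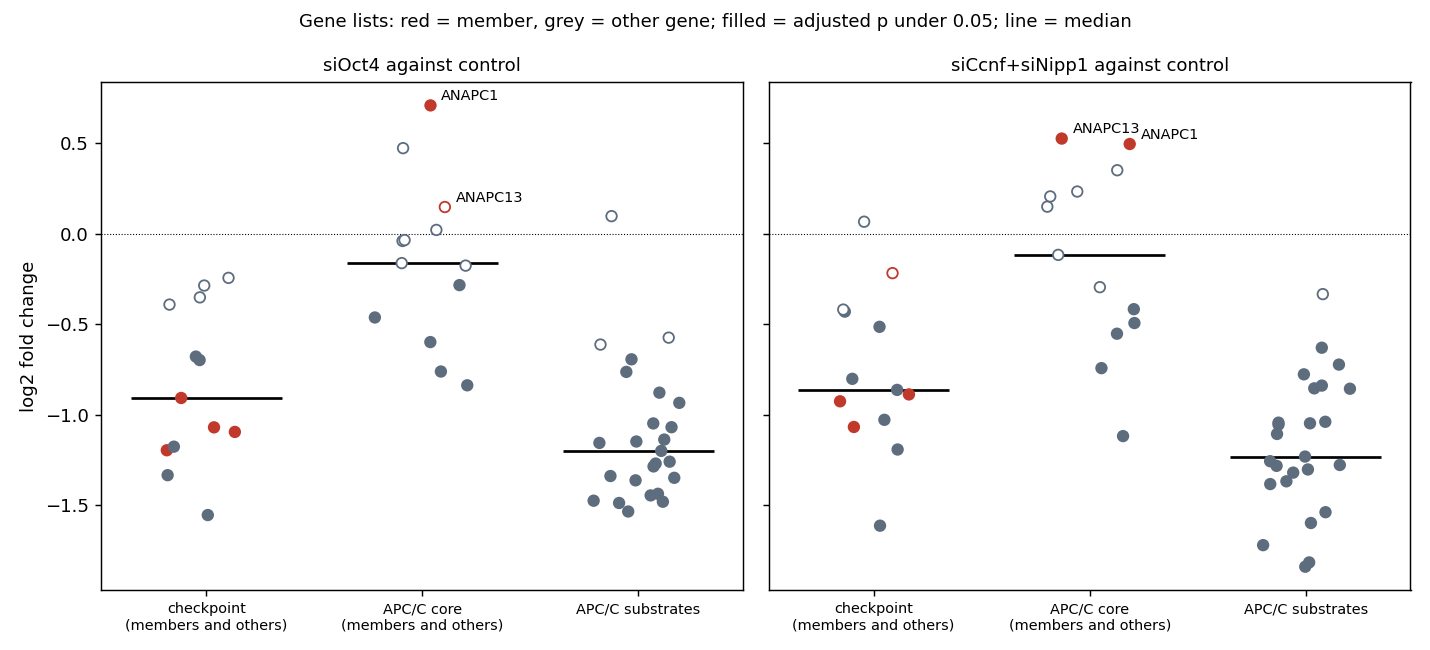
Log2 fold change against control (vertical axis) of checkpoint genes, core APC/C subunits and APC/C substrates in siOct4 cells (left) and siCcnf+siNipp1 cells (right). Red points belong to the 10 genes followed here and grey points to other genes, filled points passed an adjusted p under 0.05, and lines are medians. ANAPC1 is the top core point on the left, and ANAPC13 and ANAPC1 are the top core points on the right, while 5 other core subunits are filled below 0 in each panel.

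The knockdowns were also compared with each other. Between siOct4 and siCcnf+siNipp1 cells 3 of the 10 genes were called, against 35.2% of all genes (17.2% lower, 17.9% higher): BUB3 was lower in siOct4 cells, PTTG1 higher, and ANAPC13 lower (-0.38 ± 0.13, limma, adjusted p = 0.0445). The groups did not overlap for these 3, against 45.2% of all genes. The ANAPC13 call was lost in 9 of 15 alternatives, including without siOct4 replicates 1 or 2 and without any one siCcnf+siNipp1 replicate (adjusted p 0.00694 to 0.16 over all 15). With only these 2 groups in the fit, BUB3 alone was called. For CDC20 and MAD2L1, whose means differed by -0.06 (95% interval -0.50 to 0.39) and -0.03 (-0.57 to 0.51), the data give no difference beyond the spread. For ESPL1 the difference was 0.58 (limma, adjusted p = 0.167), and it was 0.95 and called without siOct4 replicate 3 (adjusted p = 0.0186) but 0.13 and not called without siOct4 replicate 1 (adjusted p = 0.639), the ends of the range over 15 alternatives.

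Against siRb1 cells, siOct4 cells had 7 of the 10 genes lower and 0 higher, against 33.4% of all genes called (16.8% lower, 16.6% higher). Of all calls 49.7% were higher, and 61.1% with median scaling. The groups did not overlap for 7 of the 10, against 45.5% of all genes. The genes called were the 6 checkpoint and activator genes, from -0.97 (TTK) to -1.29 (CDC20) on the log2 scale, and ESPL1. The ESPL1 difference, -0.95 ± 0.31 (limma, adjusted p = 0.0338), came with overlapping groups and was lost in 8 of 15 alternatives. Among them were the fits without siOct4 replicate 2 (-0.87, adjusted p = 0.0967), without siOct4 replicate 3 (-0.58, 0.121) and without each siRb1 replicate (range over 15 alternatives 0.000343 to 0.121). siCcnf+siNipp1 cells had 8 genes lower than siRb1 cells and 0 higher, against 36% of all genes called (18.4% lower, 17.6% higher). These 8 were also the genes without overlap, against 48.6% of all genes. The falls ran from -0.34 for BUB3 (limma, adjusted p = 0.026) to -1.53 for ESPL1 (limma, adjusted p = 0.00269). The BUB3 call was lost in 8 of 15 alternatives (adjusted p 0.0109 to 0.0969), among them the fits without siCcnf+siNipp1 replicates 2 or 3 and without each siRb1 replicate. The BUB1B call (-0.80, limma, adjusted p = 0.015) was lost without siCcnf+siNipp1 replicates 2 or 3 and without siRb1 replicate 3 (adjusted p 0.00458 to 0.0538 over 15 alternatives). By their brightest probes ANAPC1 and ANAPC13 were called in neither comparison, with differences of 0.20 and -0.17 for siOct4 and -0.02 and 0.21 for siCcnf+siNipp1 cells. The second ANAPC1 probe was higher than in siRb1 cells in both (0.63 with siOct4 and 0.45 with siCcnf+siNipp1, limma over probes, adjusted p = 0.00149 and 0.00868), and with the mean of the kept probes ANAPC1 was called higher in siOct4 than in siRb1 cells (0.41, limma, adjusted p = 0.0313).

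Several genes were read by more than 1 detected probe, each tested in a limma fit of 14441 probes. In that fit 12 of the 16 probes were called with siOct4 (10 lower, 2 higher), against 32.1% of all probes (16.4% lower, 15.7% higher), and 10 with siCcnf+siNipp1 (9 lower, 1 higher), against 36% (18.6% lower, 17.4% higher). With siRb1 0 were called, against 3.99% (1.53% lower, 2.46% higher), and 2 (ANAPC1 and ANAPC13, 1 probe each) had an unadjusted p under 0.05. The 3 BUB3 probes gave log2 fold changes of -0.91, -1.09 and -1.11 with siOct4, all called, and -0.22, -0.21 and -0.33 with siCcnf+siNipp1, none called. The split between the 2 knockdowns therefore appeared on each BUB3 probe. The second PTTG1 probe had 13.04 ± 0.19 in siOct4 cells, 12.56 ± 0.13 in siCcnf+siNipp1 cells and 13.01 ± 0.17 in control cells (SD, n = 3 each). It was lower with siCcnf+siNipp1 (-0.45, limma, adjusted p = 0.0328) and differed by 0.03 with siOct4.

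For MAD2L1 and UBE2C the second probe was dim. That of MAD2L1, detected on 8 of 12 arrays and on 1 of 3 in both siOct4 and siCcnf+siNipp1 cells, had fitted log2 fold changes of -1.09 (limma, adjusted p = 0.0819) and -1.35 (0.0335). That of UBE2C, detected on 10 of 12 arrays and 1 of 3 siOct4 arrays, gave -1.32 with siOct4 (limma, adjusted p = 0.00551) and -0.74 with siCcnf+siNipp1 (0.0711). The ANAPC1 probes parted in siRb1 cells. The second one read 8.83, 8.94 and 8.87 in siOct4 cells, 8.86, 8.64 and 8.61 in siCcnf+siNipp1 cells, 8.32, 8.20 and 8.24 in siRb1 cells, and 8.49, 8.29 and 8.46 in control cells. It rose with siOct4 (0.47, limma, adjusted p = 0.00794), was 0.29 above control with siCcnf+siNipp1 (adjusted p = 0.0639) and 0.17 below it with siRb1 (-0.17, adjusted p = 0.49). The siRb1 difference of ANAPC1 thus had opposite signs on its probes, 0.51 and -0.17. In the same fit its brightest probe was 0.50 above control with siCcnf+siNipp1 and not called (limma, adjusted p = 0.0507).

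**Figure D4:**
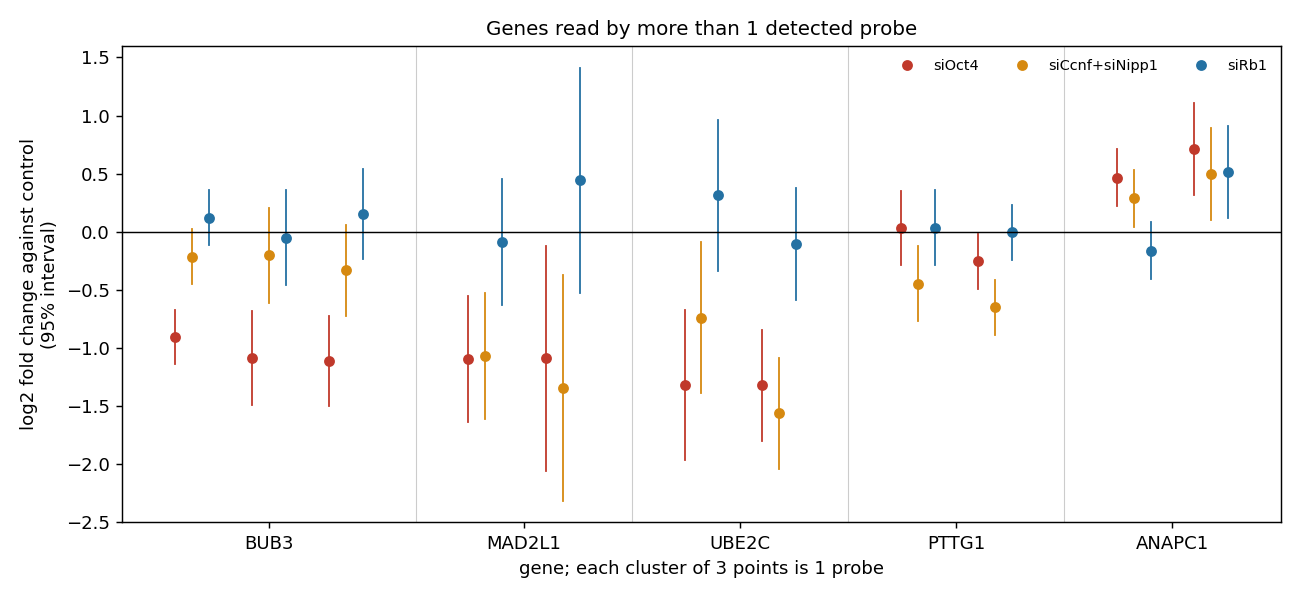
Log2 fold change against control (vertical axis) of each detected probe of BUB3, MAD2L1, UBE2C, PTTG1 and ANAPC1 in siOct4, siCcnf+siNipp1 and siRb1 cells. Each cluster of 3 points is 1 probe, and bars are 95% intervals from the limma fit over probes. The 3 BUB3 probes show the siOct4 points between -0.91 and -1.11, below the siCcnf+siNipp1 points, and the ANAPC1 probes lie on opposite sides of 0 for siRb1.

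Across the 12 arrays the 8 genes outside the core moved together, as the arrays fall into groups that differ in them. Pearson's r over their 28 pairs ran from 0.36 (BUB3 with PTTG1) to 0.98 (CDC20 with UBE2C), with a median of 0.85. After each group's mean was removed, the median was 0.53 and the range -0.01 to 0.96. The 16 pairs of a core subunit with one of the 8 had r from -0.57 to 0.12 (median -0.40), and a median of 0.24 within groups. ANAPC1 and ANAPC13 had r = 0.16 over all arrays and -0.58 within groups. These values describe 12 arrays of 4 groups that share one normalization. The genes were chosen with earlier results known, and same-numbered arrays deviated together. No r over pairs drawn from all genes was taken, so the values are not a test.

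The tested gene with the pattern most like each of the 10, by Pearson's r over the 12 arrays, was TIPIN for BUB1B (r = 0.961), TACC1 for BUB3 (0.992), LRR1 for MAD2L1 (0.979), FIRRM for TTK (0.991) and EXO1 for CDC20 (0.990). It was CDC45 for UBE2C (0.995), MAGOHB for PTTG1 (0.969), NUP205 for ESPL1 (0.976), IFNGR2 for ANAPC1 (0.898) and SSR2 for ANAPC13 (0.948). AURKA was the second neighbour of CDC20 (0.987) and GMNN of BUB1B (0.959), both of which are APC/C substrates. UBE2C was the third for ESPL1 (0.962), which made it the only one of the 10 genes among the 3 nearest of another.

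Start-site windows of 300 bases, from 250 before to 50 after an annotated RefSeq start, were found for 7 of the 10 genes. BUB3, TTK and UBE2C had none in the table used. They were searched on both strands for TTTGAA, known as the cell cycle genes homology region element, and for CCAAT, the letters that the factor NF-Y binds. TTTGAA occurred in 15.2% of 35116 windows of this length, CCAAT in 34.6% and both in 5.9%. Among the 7 genes TTTGAA was found in 5 and CCAAT in 4. In BUB1B TTTGAA began 23 bases before the start, in ESPL1 31 bases before it, and in CDC20 65 and 178 bases before it, the farther match on the reverse strand. In MAD2L1 and ANAPC1 it lay after the start, beginning at base 25 and base 38. CDC20, ESPL1 and MAD2L1 held both elements, and PTTG1 held CCAAT alone, with 2 of its matches overlapping in the letters CCAATTGG. ANAPC13 held neither element.

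The same search over the other lists used every gene with a window, counting a gene once if any of its windows matched. Both elements were found in 9 of 23 APC/C substrates, in 3 of 9 checkpoint genes and in 0 of 14 core APC/C genes, of which 3 held TTTGAA and 6 CCAAT. The octamer ATTTGCAT, the letters bound by OCT4 and its relatives, occurred in 1.77% of all windows and in 0 of the 7 genes' windows. Windows of the same gene overlap, and these matches describe letters, not bound sites. Of 10 genes for factors that act at such promoters, LIN9, a subunit of the complexes that read TTTGAA, fell with siOct4 (-1.68, limma, adjusted p = 0.000128) and siCcnf+siNipp1 (-1.10, 0.00155). FOXM1, an activator of mitotic genes that is also counted among the proliferation genes, fell by 1.52 and 1.29 (limma, adjusted p = 0.00102 and 0.00261). NFYB, a subunit of NF-Y, fell by 0.71 and 0.45 (limma, adjusted p = 0.00563 and 0.0459). LIN54 fell with siOct4 (-1.11, limma, adjusted p = 0.000334) and was not called with siCcnf+siNipp1. In all, 4 of the 10 were lower with siOct4, 3 with siCcnf+siNipp1 and 0 with siRb1, and none was higher. Over all genes 34.2%, 38.3% and 4.7% were called in these comparisons (16.6%, 19.3% and 1.74% lower), and the counts are not a test of the 10.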

How the data were processed

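Signal intensities and detection p-values for 47322 probes on 12 Illumina HT-12 arrays were read as deposited by the authors. GenomeStudio is named in the submitters' processing notes, with no version. The authors also deposited normalized intensities, whose quantiles are equal between arrays.

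The intensities were corrected and normalized by neqc (offset 16, log2) in limma 3.58.1 with R 4.3.3. Probes were kept at a detection p under 0.01 on 3 or more arrays, leaving 14441 probes and 10873 genes, each read by its brightest probe. One model with a mean per group gave the 6 comparisons (two-sided, 8 residual and 3.85 prior degrees of freedom). Recovery of known changes was tested on simulated data with independent noise on each array. The simulation lacks the shared deviations of same-numbered arrays, so it does not cover their effect on the calls.

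A platform table paired 30102 probes with 1 gene, 8 with several and 17212 with none. An "at least" fold sets the higher group's mean against each array's lowest detected signal, or the probe's own where larger. Precision is limited by having 3 arrays per group.

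The 10 genes and all lists were chosen with earlier results of these data known. Some lists share genes, such as SGO1, FBXO5 and FOXM1, so their counts are not independent. Named list genes were drawn from the 4 with the smallest adjusted p per list and knockdown and from called genes against their list's direction. The targets and the nearest genes by r were added. Not every gene that met this rule is named, with MKI67, CDK1 and PCNA among those left out. Other genes named, such as ANAPC5, CDC23, CDC26 in siCcnf+siNipp1 cells and APC/C subunits in both knockdowns, were added from their list.

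Arrays with the same replicate number deviated together from their group means: r exceeded 0.1 in 18 of 18 such pairs (0.107 to 0.419) and in 0 of 36 others. Deviations sum to 0 within a group, so positive same-numbered pairs push the others below 0. The 36 are therefore not separate support. The pairing comes from the labels' numbers and this check. Alternatives were background correction, scaling, the deposited normalized values, detection filters, probe averaging, a replicate block, 2-group fits, array weights and leaving out each array. Figures were drawn in Python 3.11.15.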

Additional observations from a re-analysis of the deposited data

How the results depend on the processing

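Of 900 values of single genes over 6 comparisons and their alternatives, 855 kept their side of the threshold, 38 calls were lost and 7 were gained. Of the 855, 25 had the other sign and were called under neither setting (MAD2L1 with siRb1 among them), and 0 called values changed sign. With a replicate block, 2 of the 10 genes (ANAPC1 and ANAPC13) were called in siRb1 against control, where 0 were without it. The block changed no other call of the 10 genes. Restricting the fit to the groups compared gave 1 called gene for siRb1 against control and 1 for siOct4 against siCcnf+siNipp1. Over all genes these fits called 531 and 2968. Leaving out 1 replicate gave 8 to 9 called genes for siOct4 against control, beside 2796 to 3637 of all genes. For siCcnf+siNipp1 against control it gave 8 to 9, beside 3183 to 3999, and for siRb1 0, beside 163 to 351. For siOct4 against siCcnf+siNipp1 it gave 2 to 4, beside 2973 to 3484. Against siRb1 it gave 6 to 8 for siOct4, beside 2794 to 3557, and 6 to 8 for siCcnf+siNipp1, beside 2964 to 3793. Over probes the block, an alternative added after the data were seen, gave 13, 13 and 0 called (siOct4 first, siRb1 last), beside 41.6%, 45.6% and 9.11% of all probes. With median scaling the siCcnf+siNipp1 calls were 0 higher and 7 lower, beside 3704 calls over all genes, 42.1% of them higher. Over all genes the siRb1 calls numbered 511, against 1162 with the block, 1035 with array weights and 163 to 351 with 1 replicate left out. Median scaling put 39.8% of them higher (63.0% otherwise), and 61.1% of siOct4 calls against siRb1 (49.7% otherwise). The causes were not tested. Having 3 arrays per group, and signals near background for the second probes of MAD2L1 and UBE2C, limits what could be called.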
